A study of Mus musculus with 20 samples.

Results

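The RNA m5C methyltransferases and readers are 10 genes of the count table, found by gene name, out of 55401 genes in all. They comprise 8 methyltransferases, Nsun2, Nsun3, Nsun4, Nsun5, Nsun6, Nsun7, Nop2, and Trdmt1, and 2 readers, Alyref and Ybx1, and each name matched 1 row. Their transcripts were measured by RNA-seq of the heart, kidney, liver, small intestine, and spleen of 8-week-old female mice. For each organ 2 libraries came from wild-type (WT) mice and 2 from Nsun6-knockout (KO) mice, which gives 20 libraries in 10 groups, and no treatment is named for any group. The KO strain was made in C57BL/6J fertilized eggs with the Cas9 protein and a pair of guide RNAs that remove exons 3 and 4 of Nsun6, so the deletion is carried by all cells of a KO mouse and no tissue-specific driver is involved. The study describes the libraries as biological replicates, and its methods do not say whether the 5 organs came from the same animals, so the p-values measure the spread between libraries only. The libraries held between 15897446 and 44508197 counts (median 28513950).

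5-methylcytosine (m5C) in RNA is a cytosine that carries a methyl group on carbon 5 of its ring. It is written by the NSUN family and by Trdmt1, which take the methyl group from S-adenosylmethionine (SAM). Nsun2 and Trdmt1 methylate cytosolic tRNAs, and Nsun2 also methylates mRNAs. Nsun6 methylates the tRNAs for cysteine and threonine close to their acceptor end, and a small set of mRNAs. Nsun3 and Nsun4 work in mitochondria, on the tRNA for methionine and on the rRNA of the small subunit, whereas Nop2 and Nsun5 methylate the rRNA of the large cytosolic subunit. Alyref, an adaptor of mRNA export in the nucleus, and Ybx1, a cold-shock-domain protein of the cytosol, bind methylated mRNAs.

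Nsun6 (ENSMUSG00000026707) lies on the minus strand of chr2:14995131-15055069 (GRCm38) and has 5006 exon bases in the annotation. The exons called 3 and 4 depend on the transcript that is counted. In the transcript with 11 exons they are chr2:15042227-15042306 and chr2:15039733-15039842, whereas in the transcript with 12 exons they are chr2:15047148-15047303 and chr2:15042227-15042306. All of these bases are coding sequence, and either pair leaves a reading frame that is out of step, with a remainder of 1 base for the first pair and 2 bases for the second. The 3 exons hold exons 3 and 4 under either numbering. They are printed 5′ to 3′ on the minus strand of GRCm38, with the exon that both numberings share in capitals. The coordinates of the deletion are not given in the sources used here.
Nsun6 exon of 156 bases: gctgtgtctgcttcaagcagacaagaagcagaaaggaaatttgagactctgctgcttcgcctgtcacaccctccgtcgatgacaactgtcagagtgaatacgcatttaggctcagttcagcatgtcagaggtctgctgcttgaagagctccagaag
Nsun6 exon of 80 bases: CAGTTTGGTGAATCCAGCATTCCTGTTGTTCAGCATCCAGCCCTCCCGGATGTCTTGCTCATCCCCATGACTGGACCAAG
Nsun6 exon of 110 bases: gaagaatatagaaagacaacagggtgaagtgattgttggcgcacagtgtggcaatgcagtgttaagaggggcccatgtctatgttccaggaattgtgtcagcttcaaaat
The deleted pair makes up 3.8% (190 of 5006) or 4.71% (236 of 5006) of the exon bases of Nsun6, according to the numbering. Because counts were summed over the whole gene, a transcript that lacks these exons still adds to the count, and the Nsun6 count does not check the genotype. The study checked the genotype by PCR and reports the loss of the Nsun6 protein by Western blot of liver, spleen, and heart.

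Levels are given as reads per kilobase of exon scaled to library size (RPKM), with library sizes normalized by the trimmed mean of M-values (TMM). This scale is per length and allows levels of different genes to be set side by side. Over the 20 libraries Ybx1 was the most abundant member, with a lowest, median, and highest level of 100.1, 159, and 475 RPKM. Its mean level lay above that of 97 to 99.3% of the detected genes, depending on the organ. Among the methyltransferases, Nsun2 had the highest median level, 11 RPKM, followed by Nop2 with 7.03 and Nsun4 with 4.20 RPKM. Nsun6 was low in every library, from 0.663 to 1.96 RPKM with a median of 1.13. Nsun7 was the lowest member in every organ, with a median of 0.0864 RPKM, and had 0 counts in 1 library of the heart.

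**Figure D1:**
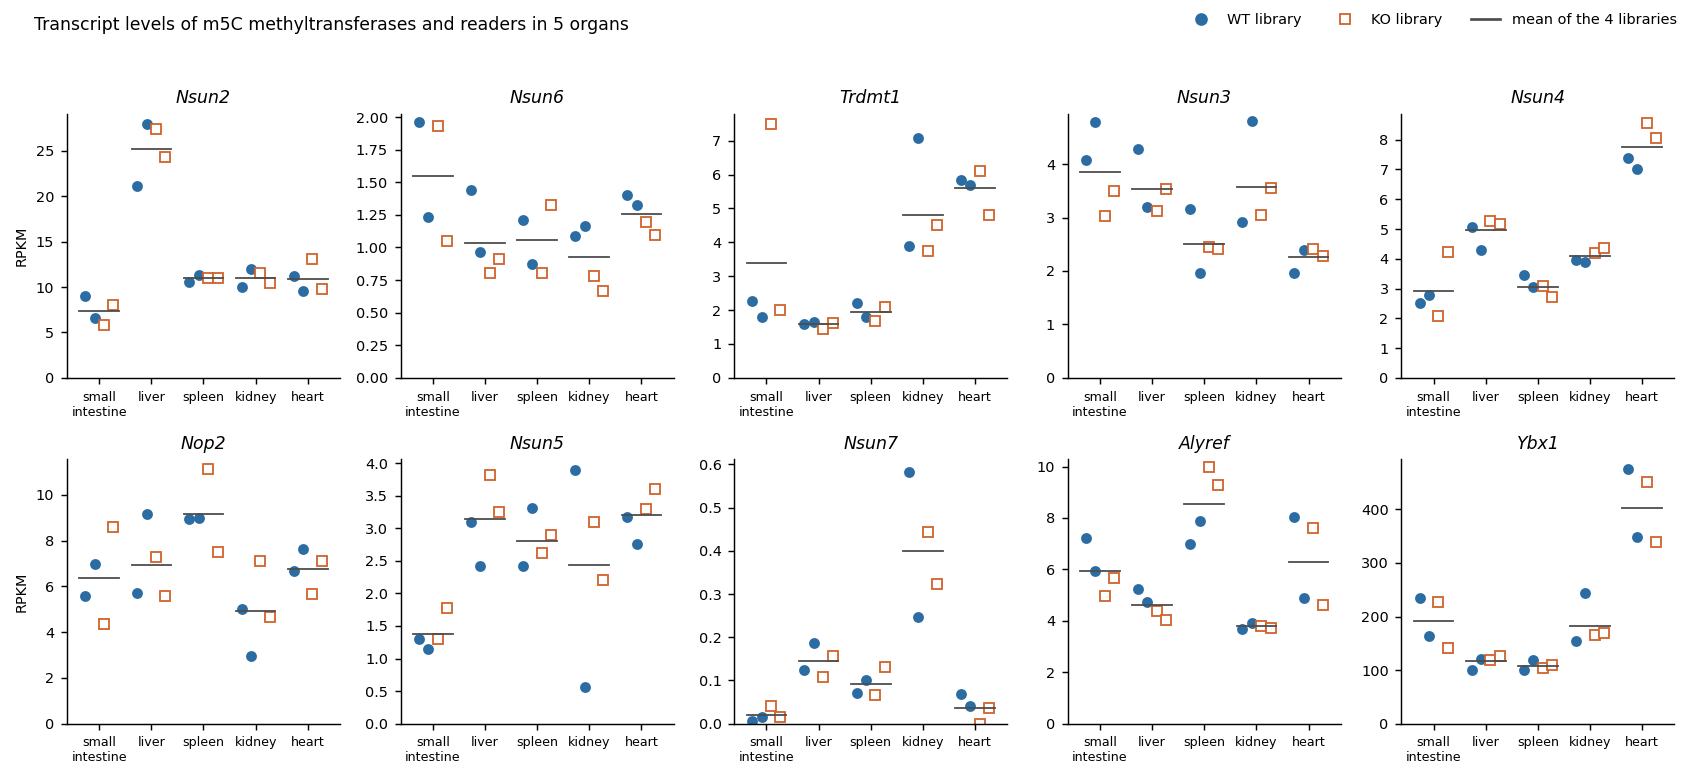
RPKM of each of the 10 members (vertical axes, from 0, a scale of its own for each gene) in the 5 organs, with a blue dot for each WT library, an open orange square for each KO library, and a line at the mean of the 4 libraries of an organ. Nsun2 stood highest in the liver on this scale, from 21.1 to 28 RPKM, but not on the TPM scale, Nsun4 and Ybx1 stood highest in the heart, and Trdmt1 of the small intestine had 1 KO library at 7.50 RPKM apart from the other 3.

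In edgeR's quasi-likelihood F test of the organs, with the genotype as a term, 8 of the 10 members differed between organs with a Benjamini-Hochberg adjusted p under 0.05. The same held for 88.7% of the 23159 genes tested, so the members' share is near that of all genes. The exceptions were Nsun6 (adjusted p = 0.0906) and Nop2 (adjusted p = 0.0510). Of the 100 comparisons of a member between a pair of organs 50 passed, against 53.1% for all genes over the same 10 pairs. In bulk RNA, fewer cells of a type and less RNA per cell cannot be told apart, and this applies to every difference between organs. None of the markers of its labelled organ was at 0 in any library. For instance, the summed level of 8 enterocyte markers was 7629 to 15629 RPKM in the small intestine and at most 303 elsewhere.

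Among the tRNA and mRNA methyltransferases, Nsun2 (chr13:69533746-69635780, plus strand) was highest in the liver. Its levels there were 21.1 and 28 RPKM in WT replicates 1 and 2 and 27.4 and 24.3 RPKM in KO replicates 1 and 2. In the small intestine, the lowest organ, they were 9.01 and 6.57 RPKM in WT and 5.83 and 8.05 RPKM in KO. The other three organs lay between 9.54 and 13 RPKM in all their libraries, and no library of the liver overlapped with one of another organ. The liver exceeded the small intestine by 1.77 on the log2 scale (SE 0.16, edgeR's quasi-likelihood test, adjusted p = 4.06e-08) and the kidney, next in order, by 1.20 (SE 0.16, adjusted p = 6.43e-06). With TMM, no difference among the kidney, spleen, and heart passed, with log2 values of 0.00 between kidney and spleen (95% confidence interval -0.33 to 0.33) and 0.01 between spleen and heart (-0.32 to 0.34). The height of the liver depended on the scaling. In TPM, the share of a transcript in the length-scaled total of its library, with no TMM correction for abundant mRNAs such as Alb in the liver, Nsun2 had 40.7 ± 2.78 TPM in the liver and 41.7 ± 2.18 TPM in the spleen (SD, n = 4), and the log2 difference between them was -0.04 (limma, adjusted p = 0.885). The difference between liver and kidney was 0.36 on that scale and did not pass (adjusted p = 0.0751). TPM moved genes in general, since the median of all genes tested was -1.12 between liver and spleen and -0.66 between liver and kidney on that scale, and Nsun2 lay above both. In limma on TPM the spleen exceeded the heart by 0.64 (adjusted p = 0.00219) and the kidney by 0.40 (adjusted p = 0.0418). The medians of all genes tested were 0.63 and 0.35 there. Of the exon bases of Nsun2, 11.1% overlap with Tent4a and Gm17108 on the other strand, and the stored counting command has no strand option, so reads of these genes cannot be told apart there.

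Nsun6 ranged from 0.663 to 1.96 RPKM over the 20 libraries. In the small intestine it had 1.96 and 1.24 RPKM in WT and 1.93 and 1.05 RPKM in KO. In the kidney it had 1.09 and 1.17 RPKM in WT and 0.781 and 0.663 RPKM in KO. With TMM, small intestine and kidney were the highest and lowest organs, and the ranges of their 4 libraries overlapped. This was the only 1 of 10 organ pairs that passed (log2 difference 0.77, SE 0.28, edgeR's quasi-likelihood test, adjusted p = 0.0256), and it was picked as the largest difference. In the order small intestine, heart, spleen, liver, and kidney no difference between neighbours passed, with values of 0.06 to 0.31 on the log2 scale and adjusted p-values of 0.349 to 0.896. The difference between small intestine and kidney did not pass with WT libraries alone (0.45), without WT replicate 1 (0.68) or KO replicate 1 (0.56) of the small intestine, or without KO replicate 1 (0.74) or 2 (0.66) of the kidney. It did not pass with no filter on low counts (0.73) or in limma on TPM either (0.52, adjusted p = 0.219). Other pairs passed in other settings. In limma on TPM the liver was lowest, with log2 differences of -1.21 to the spleen (adjusted p = 0.00393) and -0.88 to the heart (adjusted p = 0.0374). The small intestine exceeded the liver by 1.16 there (adjusted p = 0.00765). The medians of all genes tested were -1.12, -0.41, and 0.55 for these pairs. In DESeq2 the small intestine exceeded the liver by 0.66 (adjusted p = 0.0256) and the spleen by 0.60 (adjusted p = 0.0408). The F test of the organs for Nsun6 passed in 0 of 20 fits that left out 1 library, but did so in DESeq2 (adjusted p = 0.0196), in limma on TPM (adjusted p = 0.0158), and with at least 10 counts in every library (adjusted p = 0.0421).

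Trdmt1 (chr2:13509014-13544668, minus strand) was highest in the heart, with 5.84 and 5.71 RPKM in WT and 6.10 and 4.80 RPKM in KO. In the liver, the lowest organ, all 4 libraries lay between 1.45 and 1.65 RPKM. The heart exceeded the liver by 1.82 on the log2 scale (SE 0.37, edgeR's quasi-likelihood test, adjusted p = 0.000393), and no library of the heart overlapped with one of the liver or the spleen. The kidney was next, with 3.90 and 7.09 RPKM in WT and 3.76 and 4.52 RPKM in KO, and its difference to the heart did not pass (log2 0.21, 95% confidence interval -0.53 to 0.96). In the small intestine the level was 1.79 to 2.27 RPKM in 3 libraries and 7.50 RPKM in KO replicate 1, so its mean of 3.39 ± 2.75 RPKM (SD, n = 4) stands for no single library.

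The mitochondrial enzymes had different orders of organs. Nsun4 (chr4:116032842-116053876, minus strand) was highest in the heart, with 7.38 and 7.01 RPKM in WT and 8.56 and 8.05 RPKM in KO, above every library of every other organ. In the small intestine, the lowest organ, it had 2.51 and 2.80 RPKM in WT and 2.09 and 4.21 RPKM in KO. The heart exceeded the liver, next in order, by 0.64 on the log2 scale (SE 0.18, edgeR's quasi-likelihood test, adjusted p = 0.0056) and the small intestine by 1.42 (SE 0.18, adjusted p = 2.47e-06). Nsun3 (chr16:62732444-62786818, minus strand) was lowest in the heart, where its 4 libraries had 1.96 to 2.42 RPKM, and highest in the small intestine, with 3.03 to 4.79 RPKM. The small intestine exceeded the heart by 0.75 on the log2 scale (SE 0.20, edgeR's quasi-likelihood test, adjusted p = 0.0038), which did not pass with WT libraries alone (1.01, adjusted p = 0.0765). The differences among small intestine, kidney, and liver did not pass, with log2 values of 0.10 and 0.02 between neighbours. Without WT replicate 2 of the liver the difference of Nsun4 between heart and liver was 0.51 and did not pass (adjusted p = 0.0515), and that of Nsun3 between liver and spleen passed in 4 of 20 fits without 1 library. For both enzymes the liver passed as higher than the spleen with TMM. On the TPM scale the log2 differences were -0.53 for Nsun4 and -0.71 for Nsun3. The median of the genes tested was -1.12 there and -0.21 with TMM, so both lay above the median on either scale. The 13 protein-coding mitochondrial transcripts are listed at 0 in all 20 libraries, so the RNAs of the compartment in which both enzymes act cannot be set beside them.

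Of the enzymes of cytosolic rRNA, Nop2 (chr6:125131909-125144753, plus strand) ranged from 2.96 RPKM in WT replicate 2 of the kidney to 11.1 RPKM in KO replicate 1 of the spleen. Spleen against kidney was the only 1 of its 10 organ pairs that passed (log2 difference 0.90, SE 0.26, edgeR's quasi-likelihood test, adjusted p = 0.007). Nsun5 (chr5:135369953-135376805, plus strand) was lowest in the small intestine, with 1.15 to 1.31 RPKM in 3 libraries and 1.78 RPKM in KO replicate 2. It was highest in the heart, from 2.76 to 3.61 RPKM, with a log2 difference of 1.22 between both (SE 0.37, edgeR's quasi-likelihood test, adjusted p = 0.00812). This did not pass with WT libraries alone (1.28, adjusted p = 0.199) or in limma on TPM (1.17, adjusted p = 0.0513), and that of Nop2 did not pass with WT libraries alone. The differences of the liver and the spleen to the heart did not pass. The F test of the organs for Nsun5 rested on single libraries, since it passed in 8 of 20 fits that left out 1 library, with adjusted p-values up to 0.121. That of Nop2 passed in 12 of 20 such fits, with adjusted p-values of 0.0168 to 0.183. In the kidney the Nsun5 libraries disagreed most, with 3.89 RPKM (583 counts) in WT replicate 1 and 0.556 RPKM (58 counts) in WT replicate 2, and with 3.09 and 2.20 RPKM in KO. Of the exon bases of Nsun5, 15.4% overlap with Pom121 on the other strand.

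Nsun7 (chr5:66259897-66298026, plus strand), a member of the family known for its need in sperm motility, was highest in the kidney. There it had 0.583 and 0.246 RPKM in WT and 0.444 and 0.324 RPKM in KO, and each library exceeded every library of the other organs. The small intestine had between 1 and 6 counts of Nsun7 per library and the heart between 0 and 8. The kidney exceeded the liver, next in order, by 1.47 on the log2 scale (SE 0.55, edgeR's quasi-likelihood test, adjusted p = 0.0418), and this passed in 8 of 20 fits without 1 library, with log2 differences of 1.22 to 1.64. At 1 to 6 counts the level in the small intestine is not precise, and its fitted log2 difference of 4.36 to the kidney (SE 0.66) depends on so few reads.

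The readers were highest in different organs. Ybx1 (chr4:119277981-119294604, minus strand) had 475 and 349 RPKM in WT and 451 and 338 RPKM in KO in the heart, above all libraries of the other organs. The heart exceeded the small intestine, next in order, by 1.07 on the log2 scale (SE 0.20, edgeR's quasi-likelihood test, adjusted p = 0.000192) and the spleen, the lowest organ, by 1.90 (SE 0.21, adjusted p = 3.93e-07). All libraries of the liver and the spleen lay between 100.1 and 126 RPKM, below every library of the other organs. Alyref (chr11:120592121-120598365, minus strand) was highest in the spleen, with 6.97 and 7.88 RPKM in WT and 9.96 and 9.30 RPKM in KO. It was lowest in the kidney, where the 4 libraries agreed closely, from 3.68 to 3.90 RPKM. The spleen exceeded the kidney by 1.18 on the log2 scale (SE 0.20, edgeR's quasi-likelihood test, adjusted p = 6.95e-05), which did not pass with WT libraries alone (0.91), whereas its difference of 0.45 to the heart, the next in order, did not pass (95% confidence interval 0.03 to 0.86, adjusted p = 0.0620) but did so in 12 of 20 fits without 1 library. In the heart WT and KO replicate 1 had 8.05 and 7.60 RPKM and WT and KO replicate 2 had 4.90 and 4.61 RPKM.

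Summed over the 8 methyltransferases, the level was 46.5 ± 3.62 RPKM in the liver, 37.8 ± 1.75 in the heart, 32.2 ± 1.48 in the kidney, 31.6 ± 1.15 in the spleen, and 26.8 ± 1.68 in the small intestine (SD, n = 4 each). On the TPM scale, with the medians of the genes tested given above, the order changed, with the spleen highest at 120 ± 7.36 TPM and the liver at 75.4 ± 7.04 TPM. The share of each gene in the sum does not depend on the scaling of the library. Nsun2 made up 54 ± 2.93% of the sum in the liver and 27.4 ± 4.74% in the small intestine. Nsun4 made up 20.5 ± 1.26% in the heart and at most 14.4% in any library of the other organs. Nsun6 made up 5.80 ± 1.89% in the small intestine and between 2.25 and 3.35% on average in each other organ, so its transcripts were a small part of the sum in WT as well as in KO.

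**Figure D2:**
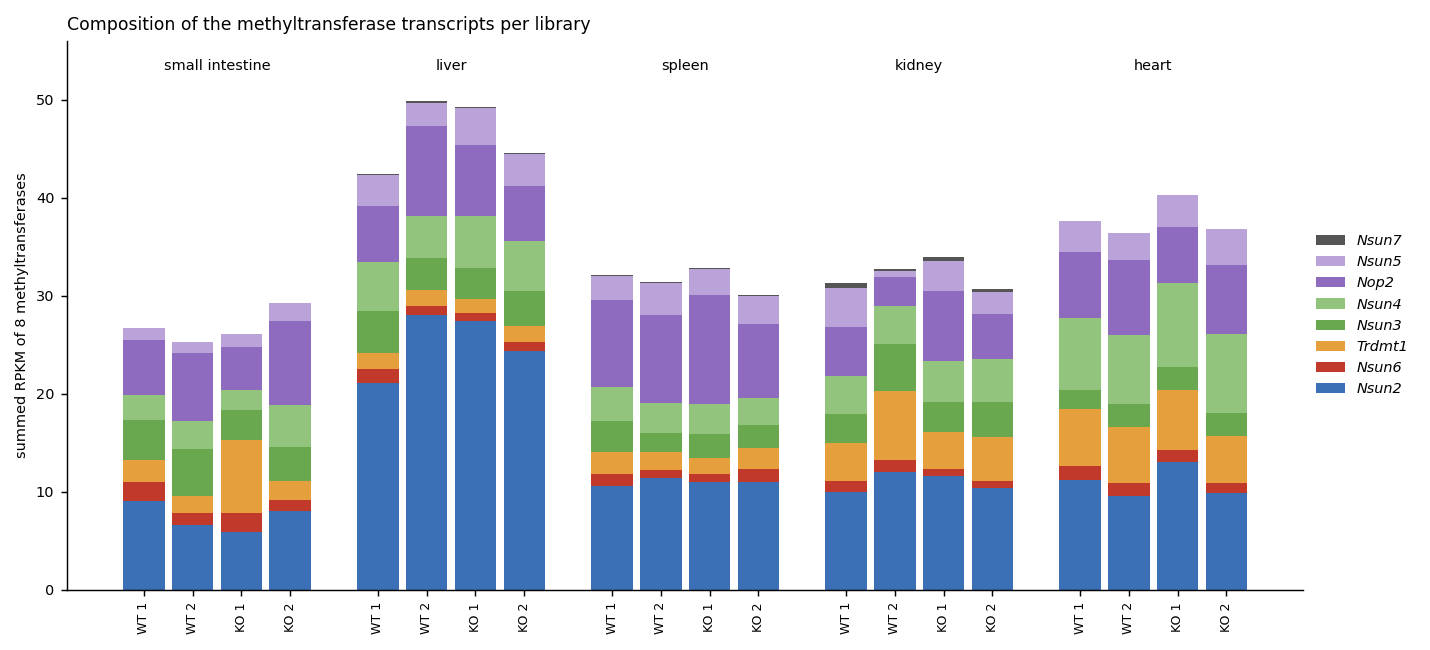
Stacked bars of the RPKM of the 8 methyltransferases (vertical axis, summed RPKM) in each of the 20 libraries, named by genotype and replicate under 5 organs. The red segment of Nsun6 took 1.63 to 7.41% of a bar, and the blue segment of Nsun2 was the largest in most libraries and reached 54% of the sum on average in the liver.

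To ask whether other methyltransferases or the readers were upregulated where Nsun6 was deleted, KO was compared with WT within each organ, and once over all organs with the organ as a term. Within an organ a change needed an adjusted p under 0.1 with more than a 2-fold difference, the thresholds of the study, and in the fit of all organs an adjusted p under 0.1. No member was changed in any organ. Among all genes tested the share in edgeR was 0% in the small intestine, kidney, and heart, 0.0509% for liver, and 0.223% for spleen. Calls of edgeR were thus rare for any gene. DESeq2 gave 0 changed members in each organ as well, but its share over all genes is not given here. With DESeq2 the study reports changed genes in each organ except the kidney. In edgeR 1 of the 48 comparisons had an unadjusted p under 0.05, against 2.73% for all genes over the 5 organs. In 12 of the 48 the WT and KO libraries did not overlap, 6 higher and 6 lower in KO, against 25.7% for all genes. Those higher were Nsun4 in the liver, kidney, and heart, Nsun5 in the liver and heart, and Alyref in the spleen. Those lower were Nsun6 in the liver, kidney, and heart, Alyref in the liver and small intestine, and Nsun3 in the small intestine.

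Nsun6 itself was lower in both KO libraries than in either WT library for the kidney, liver, and heart, and overlapped for the small intestine and spleen. KO libraries below both WT libraries were also found for 16.1% of all genes for the liver, 9.3% for the kidney, and 8.65% for the heart. In the liver it had 1.44 and 0.964 RPKM in WT and 0.804 and 0.912 RPKM in KO. In the heart the levels were 1.40 and 1.33 RPKM in WT and 1.20 and 1.10 RPKM in KO, whereas in the spleen KO replicate 2, at 1.33 RPKM, exceeded both WT libraries, at 1.21 and 0.871 RPKM, and KO replicate 1 had 0.804 RPKM. Its log2 fold changes were -0.67 (SE 0.43) in the kidney, -0.49 (SE 0.34) in the liver, -0.27 (SE 0.33) in the heart, -0.15 (SE 0.52) in the small intestine, and 0.08 (SE 0.34) in the spleen. That of the liver rested on single WT libraries, with -0.19 without WT replicate 1 and -0.73 without WT replicate 2. With 1 library left out, the sign also turned in the small intestine (-0.63 to 0.22) and the spleen (-0.35 to 0.38). It was kept in the kidney (-0.79 to -0.52) and the heart (-0.31 to -0.21). Liver WT replicate 1 also stood apart in its hepatocyte markers, which summed to 84530 RPKM against 151034 to 171361 RPKM in the other 3, with Alb as the most abundant. The 4 cardiomyocyte markers tested in the liver were all lower in KO (median -3.38 on the log2 scale). The 8 markers of that list summed to 11.1 and 1.96 RPKM in WT and 0.656 and 0.584 RPKM in KO. The heart libraries differed in atrial markers, of which 5 of 6 had a lower value in KO (median -1.96 on the log2 scale). Their summed level was 774 and 1397 RPKM in WT and 85.4 and 461 RPKM in KO. Myl7 was the most abundant except in KO replicate 1, where Nppa led, and 1 marker was at 0 in replicate 1 of each genotype. The 8 B cell markers were all lower in KO there too (median -2.68), with sums of 2.14 and 14.4 RPKM in WT and 3.02 and 2.25 RPKM in KO. Of 13 proliferation markers 10 were higher (median 0.68), but their sums overlapped, with 46.0 and 41.3 RPKM in WT and 54.7 and 34.7 RPKM in KO. The part of these markers in the Nsun6 values of the liver and the heart was not tested. Over all organs the fold change was -0.29 (SE 0.17, 95% confidence interval -0.65 to 0.08, edgeR's quasi-likelihood test, unadjusted p = 0.113, adjusted p = 0.9998), where 0.00432% of all genes passed. A fall of the whole-gene level by a log2 of 1 lies outside this interval, and no change lies inside it. The interaction F test of a difference of this effect between organs gave an unadjusted p of 0.787. In simulated data with 1 spread common to all genes, this test recovered 0 of 98 genes changed 4-fold in KO of the liver alone. Its missing call therefore does not decide the question.

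No other member passed in KO. In the fit of all organs the log2 fold changes were 0.01 for Nsun2, 0.10 for Trdmt1, -0.16 for Nsun3, 0.11 for Nsun4, 0.06 for Nop2, 0.22 for Nsun5, -0.05 for Nsun7, -0.05 for Alyref, and -0.06 for Ybx1. Their 95% confidence intervals reached at most 0.22 for Nsun2, 0.59 for Trdmt1, 0.11 for Nsun3, 0.35 for Nsun4, 0.41 for Nop2, 0.70 for Nsun5, 0.78 for Nsun7, and 0.21 for both readers, so all upper bounds lay under a doubling, a log2 of 1. The KO effect of a member did not pass a test of a difference between organs (0 of 10, against 0% of all genes), and the lowest unadjusted p in that F test was 0.184 for Trdmt1. In simulated data of this design, with 1 spread common to all genes of a fit, most genes changed 2-fold were missed in every organ and in the fit of all organs. The test of a difference between organs and the fits of the small intestine and the kidney recovered none of them. A missing call therefore does not show that a member was unchanged. Of genes changed 4-fold, that test and the small intestine fit recovered 0%, and the kidney fit 4.21%. The fits of the liver, spleen, and heart recovered 93.9%, 62.2%, and 64.9% of such genes. These are not rates for single members, whose own spread can differ from the common spread. Within organs, 43 comparisons of the other 9 members gave 19 higher and 24 lower values in KO. Of these, 41 lay within 0.5 of 0 on the log2 scale. The exceptions were Trdmt1 in the small intestine (1.17) and Nop2 in the kidney (0.52, and 0.19 to 0.98 with 1 library left out). In 33 of the 43 the upper bound of the 95% confidence interval lay under 1, so in the remaining 10 the interval still holds an increase to more than double. Nsun7 could not be tested in the small intestine and heart because its counts were under the filter.

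**Figure D3:**
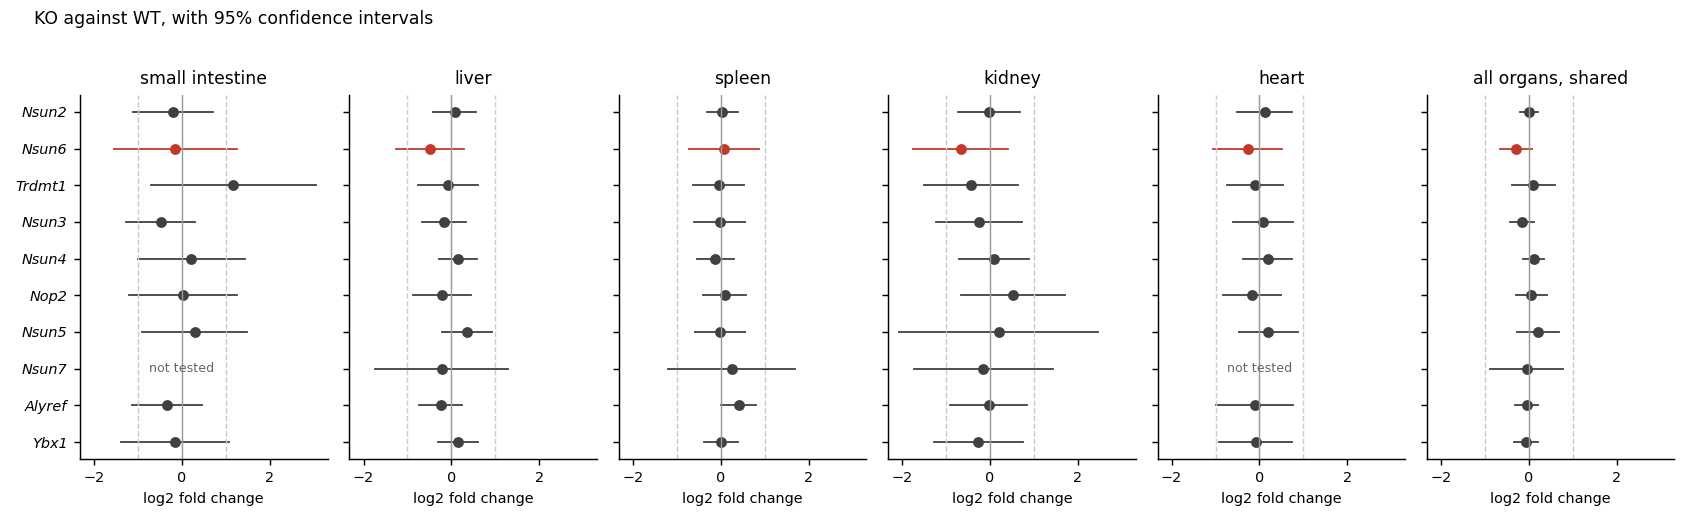
Log2 fold change of KO against WT (horizontal axes, dots) with 95% confidence intervals (lines) for the 10 members (vertical axis, Nsun6 in red) in each organ and in the fit of all organs, with dashed lines at a fold change of 2 either way. All 10 intervals of the fit of all organs lie between the dashed lines, whereas those of Trdmt1 in the small intestine and Nsun5 in the kidney are the widest of their panels.

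The summed level of the 7 methyltransferases other than Nsun6 was set side by side as well, without a test. It was 24.4 ± 0.489 RPKM in WT and 26.2 ± 2.82 in KO for the small intestine, 44.9 ± 5.61 and 46 ± 3.39 for the liver, and 30.7 ± 0.245 and 30.4 ± 2.28 for the spleen. For the kidney it was 30.9 ± 0.940 in WT and 31.6 ± 2.25 in KO, and for the heart 35.7 ± 0.828 and 37.4 ± 2.40 (SD, n = 2 each). In all 5 organs the WT and KO libraries overlapped, and the ratio of the means lay between 0.989 and 1.07. For single genes only 25.7% of comparisons did not overlap, so an overlap does not show that the sum was unchanged.

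Among the fold changes named within an organ, a pair moved most when 1 library was left out. Trdmt1 in the small intestine had a log2 fold change of 1.17 (SE 0.71, 95% confidence interval -0.71 to 3.06, edgeR's quasi-likelihood test, unadjusted p = 0.165), which became -0.04 without KO replicate 1. Nsun5 in the kidney had a log2 fold change of 0.20 (SE 0.90), which became -0.58 without WT replicate 2 and 2.24 without WT replicate 1, where it passed the call. These were the only members named within an organ for which leaving out 1 library moved the fold change by more than a log2 of 1. The WT libraries of the kidney also differed in markers. The 8 tubule markers, led by Kap, summed to 23270 and 56473 RPKM in WT and 39103 and 48555 RPKM in KO. The 13 proliferation markers summed to 28.0 and 55.7 RPKM in WT and 35.6 and 35.3 RPKM in KO. The 10 hepatocyte markers summed to 61.2 and 223 RPKM in WT and 139 and 99.5 RPKM in KO. Their part in the kidney values of Nsun5 and Nsun6 was not tested.

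The small intestine libraries differed in markers of the stretch of gut and of muscle. Fabp6, a bile acid binding protein of the ileum, had 14218 RPKM in WT replicate 1 and 13071 in KO replicate 1 but 0.497 and 0.861 RPKM in WT and KO replicate 2. Pdx1, a transcription factor of the duodenum, had 0 counts in both replicates 1 and 43.2 and 30.2 RPKM in WT and KO replicate 2. Over the whole lists, 4 distal markers summed to 14839 and 14050 RPKM in WT and KO replicate 1 and to 1.86 and 3.09 RPKM in replicate 2, and 5 proximal markers to 15.8 and 8.19 RPKM in replicate 1 and 2509 and 228 RPKM in replicate 2, of which Gkn3 alone was 2137 RPKM in WT replicate 2. In both genotypes Nsun6 was higher in the library with Fabp6 than in that with Pdx1. It had 1.96 RPKM in WT and 1.93 in KO in the libraries with Fabp6, and 1.24 RPKM in WT and 1.05 in KO in those with Pdx1, so KO was the lower in both. Ybx1 had 234 and 228 RPKM in WT and KO with Fabp6 and 164 and 141 RPKM with Pdx1. Smooth muscle genes, chosen after their values were seen, were higher in both KO libraries. Actg2, an actin of visceral smooth muscle, had 31.2 and 52 RPKM in WT and 407 and 149 RPKM in KO, with the highest value in KO replicate 1, the library with the most Trdmt1. Desmin (Des) had 19.1 and 29.8 RPKM in WT and 188 and 79.7 RPKM in KO. Acta2, the actin of vascular smooth muscle, had 25.2 and 53.9 RPKM in WT and 129 and 185 RPKM in KO, with its highest value in KO replicate 2. The 8 cardiomyocyte markers summed to 174 RPKM in KO replicate 1, led by Myl2 with 87.2 RPKM and with none at 0, against 2.29 to 5.19 RPKM in the other 3 libraries and at least 22217 RPKM in the heart. The part of gut position, muscle, and heart markers in the values of Nsun6, Ybx1, and Trdmt1 was not tested.

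**Figure D4:**
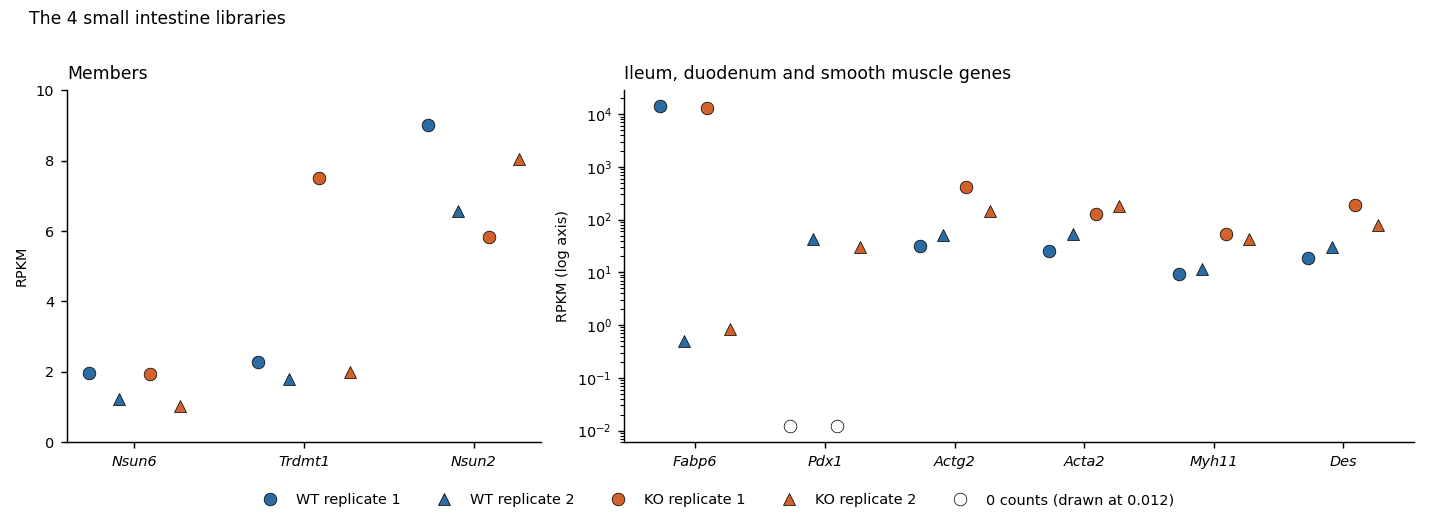
RPKM of Nsun6, Trdmt1, and Nsun2 (left, linear axis from 0) and of Fabp6, Pdx1, Actg2, Acta2, Myh11, and Des (right, log axis) in the 4 libraries of the small intestine, WT in blue and KO in orange, replicate 1 as circles and replicate 2 as triangles, with 0 counts as open circles. Circles of Nsun6 lie above its triangles in both genotypes, and the KO circle of Trdmt1, at 7.50 RPKM, stands apart, whereas the KO circles are the highest points of Actg2, Myh11, and Des but not of Acta2.

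Alyref in the spleen was the only member with an unadjusted p under 0.05 in an organ. It was higher in both KO libraries, 9.96 and 9.30 RPKM, than in both WT libraries, 6.97 and 7.88 RPKM, a log2 fold change of 0.41 (SE 0.17, 95% confidence interval 0.02 to 0.80, edgeR's quasi-likelihood test, unadjusted p = 0.0431, adjusted p = 0.920). In the spleen 5.14% of all genes had an unadjusted p under 0.05, and 14.7% had both KO libraries above both WT libraries. In the liver and the small intestine Alyref was instead lower in both KO libraries, with log2 fold changes of -0.25 and -0.35, where 16.1% and 10% of all genes were so placed. Cell markers moved with the spleen genotypes. All 13 proliferation markers were higher in KO, with a summed level of 189 and 271 RPKM in WT and 473 and 424 RPKM in KO and Pcna as the most abundant. All 10 erythroid markers were higher as well, with sums of 7309 and 10056 RPKM in WT and 16408 and 15339 RPKM in KO and Hba-a1 as the most abundant except in KO replicate 2, where Hbb-bt led. No marker of either list was at 0 in a spleen library. Of the 8 B cell markers 7 were lower and 1 higher in KO, with sums of 1433 and 1200 RPKM in WT and 1194 and 915 RPKM in KO. WT replicate 2 of the spleen also held 1594 RPKM of the 10 hepatocyte markers, of which Alb had 1146 RPKM, against 5.62, 59.4, and 83.1 RPKM in the other libraries. The 8 kidney tubule markers summed to 51.0 RPKM in KO replicate 1, of which Kap had 47.9 RPKM, against 0.514 to 0.900 RPKM in the other libraries. The part of these markers in the Alyref value was not tested, and without any 1 of the 4 libraries its log2 fold change stayed between 0.29 and 0.53.

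Genes around the members were examined in 10 lists with 113 genes, which cover the oxidation of m5C, other binders, mRNA export with Alyref, the supply of SAM, tRNA synthetases, and other modifications of RNA and DNA. Between organs 103 of the 110 genes tested passed in edgeR's quasi-likelihood F test, against 88.7% of all genes. In KO none had an adjusted p under 0.1 in any organ or in the fit of all organs, with 49 higher and 61 lower values and a median log2 fold change of -0.02 in the fit of all organs, where the median of all genes was 0.01. The Tet enzymes, which oxidize m5C in DNA and RNA, and Alkbh1, which oxidizes it in tRNA, had 2 higher and 2 lower values. Of the 12 partners of Alyref in mRNA export that are in the table, 4 were higher and 8 lower. All 15 genes of nucleolar rRNA modification were lower in KO in the small intestine, with a median log2 fold change of -0.35 against 0.00 for all genes, but none had an unadjusted p under 0.05. Across the lists 84 of 110 genes were lower in KO in that organ. The proliferation markers were lower there too, 13 of 13, with a median log2 fold change of -1.02, and their part in these values was not tested. These counts rested on WT replicate 1, whose proliferation markers summed to 176 RPKM against 84 RPKM in WT replicate 2 and 99.8 and 83 RPKM in KO. The 8 B cell markers stood apart in the same library, with a sum of 136 RPKM against 6.08 RPKM in WT replicate 2 and 0.727 and 27.4 RPKM in KO. Cd79b led in all 4, and all 8 had lower values in KO (median -3.01 on the log2 scale). By the ratio of mean RPKM, 75 of the 110 genes, 13 of the 15 nucleolar genes, and 13 of the 13 proliferation markers were lower in KO with all 4 libraries, but 46, 6, and 3 without WT replicate 1.

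The synthetases that charge the tRNA substrates of Nsun6, those for cysteine (Cars, Cars2) and threonine (Tars, Tars2, Tarsl2), were also compared. In the liver Cars2 was higher by 0.62 (SE 0.21, unadjusted p = 0.0185) and Tars by 0.53 (SE 0.19, unadjusted p = 0.0231) on the log2 scale, and in the spleen Tarsl2 by 0.82 (SE 0.25, unadjusted p = 0.013) and Cars by 0.49 (SE 0.18, unadjusted p = 0.0265). Across the 10 lists 6 of 109 genes had an unadjusted p under 0.05 in the liver and 6 of 109 in the spleen, against 4.7% and 5.14% of all genes. The others were Ybx3, Mat2a, and Ythdf1 (lower) and Bud23 (higher) in the liver, and Tfb1m, Mrm1, Trmt10a, and Dnmt1 (all higher) in the spleen. None of these passed in edgeR's quasi-likelihood test (adjusted p of 0.545 to 0.9995). In the liver 4 of the 5 synthetases were higher and 1 lower, in the spleen 3 and 2, and in the small intestine 1 and 4, where the median log2 fold change was -0.23. In the fit of all organs all 5 were higher, the median was 0.10 on the log2 scale, and none had an unadjusted p under 0.05. Among the genes of SAM supply, Mat1a, the SAM synthetase of the liver, was lower by 2.91 on the log2 scale in the small intestine (4 and 2 counts in the KO libraries against 32 and 20, SE 0.87, unadjusted p = 0.0242, edgeR's quasi-likelihood test, adjusted p = 0.9999). Of the 10 hepatocyte markers, 9 were lower in KO there as well, with a median log2 fold change of -1.42. Alb had 23.4 RPKM in WT replicate 1 and 3.34 to 6.66 RPKM in the other 3, and by the ratio of mean RPKM 3 of the 10 were lower without that library. The sum of the list, 3328 and 7254 RPKM in WT and 5505 and 11681 RPKM in KO, was nearly all Apoa1, which enterocytes also make, and 1 marker was at 0 in WT replicate 2 and in KO replicate 1. Their part in the Mat1a value was not tested. In the spleen Mat1a, Gnmt, and Bhmt, which are also liver enzymes, had log2 fold changes of -3.25, -3.04, and -3.14, none with an unadjusted p under 0.05. The spleen library with the most hepatocyte markers is a WT library, as given above, and the part of these markers in the spleen values was not tested.

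**Figure D5:**
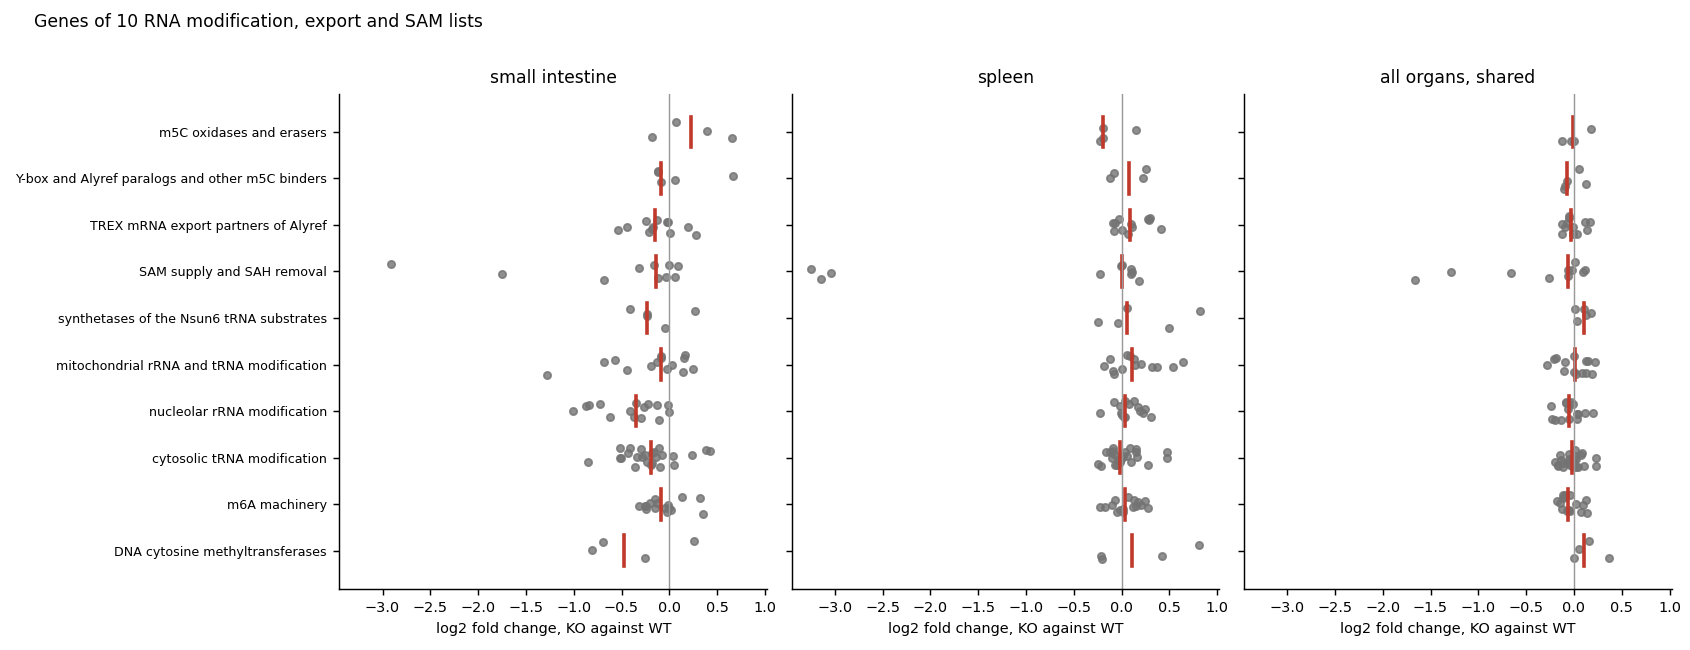
Log2 fold change of KO against WT (horizontal axes, 1 scale for all panels) for the genes of 10 lists (vertical axis) in the small intestine, in the spleen, and in the fit of all organs, with 1 grey dot per gene and a red bar at the median of the list. The medians lie near 0 in the fit of all organs, those of the small intestine lie mostly to the left, and the far left dots are liver enzymes of SAM supply.

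As a description, the 20 libraries were searched for the genes whose log2(RPKM + 0.1) correlated best with each member, out of 23158 other genes. Because the points share 5 organs, these correlations mostly follow differences between organs. Nsun6 had its highest Pearson r with Strn (0.802), Gm49335 (0.802), Taok1 (0.788), Capza2 (0.758), and Cacna2d2 (0.752), lower than the highest value of any other member. Nsun2 was most like Apoe, a lipoprotein component made in the liver (r = 0.970), Nsun4 most like Foxred1, a mitochondrial assembly factor (r = 0.958), Ybx1 most like Rab28 (r = 0.956), and Trdmt1 most like Fhl1, a muscle protein (r = 0.933). For Nsun7, Nsun5, Alyref, Nop2, and Nsun3 the highest r were 0.929 with Zfp618, 0.915 with Zfp446, 0.883 with Rad51ap1, 0.874 with Dhx37, and 0.866 with Pdcl. Between members the highest was that of Trdmt1 with Ybx1 (r = 0.810), both of which were highest in the heart.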

How the data were processed

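RNA was extracted with a phenol reagent and sequenced from stranded mRNA libraries as read pairs. The authors trimmed reads with cutadapt, mapped them with HISAT2 2.1.0, and deposited raw counts per gene from featureCounts 2.0.1, without normalization, beside the coordinates, strand, exon length, and name of each gene. The genome is given as GRCh38 in the methods and as mm10 in the labels, and the gene coordinates are those of GRCm38. The methods state stranded counting, whereas the stored command has no strand option. Gene models and exon sequences were read from the GENCODE annotation and genome of GRCm38.

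Counts were analysed in edgeR 4.0.16 (R 4.3.3) with TMM normalization, filterByExpr, and the robust quasi-likelihood test, with Benjamini-Hochberg adjustment over all genes tested. WT and KO were compared within each organ (2 against 2 libraries), and all 20 libraries were fitted with organ and genotype for the shared effect, the interaction, and the differences between organs. The p-values between pairs of organs were adjusted within a pair. A log2 fold change has its SE from the F statistic and its 95% confidence interval from the t distribution of the fit. Log2 values for limma 3.58.1 were log2(TPM + 0.1), for genes with a TPM over 1 in at least 1 library of the fit. The spread between replicates limits the precision, and for Nsun7 counting error does too. Alternatives were other size factors, DESeq2 1.42.0, no filter or at least 10 counts in every library, other thresholds, a single fit of all libraries, WT libraries only, limma on TPM, the replicate number as a block, and each library or organ left out. The fits were tested on simulated data with 1 spread common to all genes of a fit. For the test of a difference between organs, genes were changed in KO of the liver only. All 10 members are named, and Nsun6 is given in every organ. Other members are given within an organ where the unadjusted p was under 0.05, and at most 4 genes per list. Members whose WT and KO libraries did not overlap are named as well. The directions of lists in the small intestine without each library, by the ratio of mean RPKM + 0.1, were added after the data were seen. Trdmt1, Nsun5, and Nop2 within an organ, the values of other members there, the smooth muscle genes, and Gnmt and Bhmt were chosen after their values were seen. The members and lists were chosen with earlier results of these data known. The bisulfite, flow cytometry, and RT-qPCR data were not analysed here.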

Additional observations from a re-analysis of the deposited data

Results flagged for a closer look

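Trdmt1 in KO replicate 1 of the small intestine, at 7.50 RPKM, stood apart from the other 3 libraries of that organ, of which the nearest had 2.27 RPKM. The gap was 0.915 of the range of the 4 libraries. Of 50 sets of 4 libraries, 10 members in 5 organs, this was the only 1 marked, and chance alone marks about 1 in 20. The same library had the highest level of the smooth muscle genes Actg2, Myh11, and Des among the 4, but not of Acta2, which was highest in KO replicate 2. Its 8 cardiomyocyte markers summed to 174 RPKM, against 2.29 to 5.19 RPKM in the other 3, and the part of these genes in the Trdmt1 value was not tested.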

How the results depend on the processing

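No member was called changed in KO under any alternative except Nsun5 in the kidney, which passed without WT replicate 1, so that the count there was 0 to 1 over the libraries left out. The members differing between organs were 7 to 9 over the libraries left out, and the member and organ pairs called 45 to 52. With WT libraries only these counts fell to 5 and 19, where fewer samples were fitted and the pairs of highest and lowest organ of Nsun3, Nop2, Nsun5, Nsun6, and Alyref did not pass, and with a fold change over 2 the pairs fell to 26. DESeq2 and limma on TPM gave 10 members.

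Of 667 recomputed values of the named KO fold changes and of each member's highest against lowest organ, 628 kept their direction and 39 reversed, all of uncalled KO values. In the fit of all organs Nsun2 turned to -2.1e-05 with at least 10 counts in every library, -0.016 without the liver, -0.011 without the spleen, -0.046 without the heart, and -0.040 with limma on TPM. Trdmt1 turned to -0.17 and Alyref to 0.011 without the small intestine, Nop2 to -0.059 without the kidney and -0.0041 with limma on TPM, and Nsun7 to 0.16 without the heart. Nsun6 in the spleen turned to -0.11 with limma on TPM. For these the cause was not tested. With 1 library left out, the fit of all organs gave -0.043 to 0.057 for Nsun2, -0.15 to 0.19 for Trdmt1, -0.038 to 0.12 for Nop2, -0.19 to 0.085 for Nsun7, 0.078 to 0.43 for Nsun5, 0.0016 to 0.17 for Nsun4, and -0.38 to -0.25 for Nsun6. Within organs Nsun6 ranged from -0.63 to 0.22 in the small intestine, -0.35 to 0.38 in the spleen, and -0.73 to -0.19 in the liver, Trdmt1 from -0.035 to 1.79 in the small intestine, and Nsun5 from -0.58 to 2.24 in the kidney.

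Same-numbered libraries deviated together in the small intestine (correlation over genes 0.508) and heart (0.276) but not in the kidney (0.089), liver (0.022), or spleen (0.0072). The numbers were not taken as pairs in the main fits of any organ, and the confidence intervals above are of unpaired fits. In the small intestine these fits count differences between stretches of gut as spread between replicates. That spread enters the SEs, confidence intervals, and p-values given for the organ. In the heart both replicates 2 were deeper, with 36090637 counts in WT and 41763236 in KO against 17959542 and 15897446 in WT and KO replicate 1. Only the column headers of both replicates 2 of the heart hold the word pre, whose meaning is not given. The heart levels of Alyref and Ybx1 given above split by the same number, and the part of depth or of this mark was not tested. With the replicate number as a block 0 members were called in each organ and in the fit of all organs, where Nsun6 was -0.30. In the small intestine, where the numbers mark different stretches of gut by their markers, Nsun6 was -0.17 and Trdmt1 0.91 with the block, and leaving out 1 library there compares unlike stretches.

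TPM moved the median of all genes by -0.17 in the liver, -0.16 in the spleen, and 0.11 in the kidney for KO against WT, and by -0.91 for liver against spleen. Of the 50 organ pairs called, 3 changed direction on that scale, those of Nsun2, Nsun3, and Nsun4 between liver and spleen. Nsun7 is limited by depth.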
